A study of Mus musculus with 16 samples.

Results

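EpiLC-only interactions are the promoter contacts that were called in day 2 epiblast-like cells (EpiLC) of all 4 cell lines studied and in day 0 embryonic stem cells (ESC) of none of them. They were chosen by the deposited CHiCAGO scores: a row of the interaction table had to score 5 or more, the usual calling threshold, in all 4 EpiLC columns and under 5 in all 4 ESC columns. This left 1223 of 260860 listed interactions (0.469%), of which 105 had a promoter fragment at the other end as well. Because the choice used every column, the difference between the stages is a description of the members and was not tested on them. The 1223 interactions start from 953 promoter fragments (baits) and end on 1133 fragments; 1221 different pairs of fragments are involved, since a contact between promoters can be listed from both ends.

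The measurements come from promoter-capture Hi-C, in which chromatin is fixed, cut with HindIII, ligated and enriched for fragments that hold promoters, so that ligated pairs report which distant DNA lay near a promoter. The 4 mouse lines were DNMT_KO, without Dnmt1, Dnmt3a and Dnmt3b (the enzymes that write DNA methylation), its parental wild type DNMT_WT, TET_KO, without Tet1, Tet2 and Tet3 (the enzymes that start its removal), and the parental wild type TET_WT. Each line was measured as ESC in 2i and Lif at day 0 and as EpiLC at day 2. The labels list 2 replicates for each of the 8 groups, 16 samples in all, but the scores come as 1 column per group, so no column has an SD; whether a knock-out line is a single clone is not stated. Contacts are not expression, and the labelled cell types could not be checked against marker genes.

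Naive ESC and EpiLC stand for the pre-implantation and the early post-implantation epiblast. On leaving the naive state cells shut down naive enhancers, take up formative ones and gain DNA methylation over most of the genome. Distant enhancers act through proximity to their promoters, and such contacts can be set up before a gene is used, as at developmental regulators whose genes lie far from their enhancers. A CHiCAGO score weighs the reads that join a pair of fragments against those expected from distance and from the noise of the bait. It is a measure of confidence that a contact exceeds background, and not a contact frequency.

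The promoters below belong to baits on which much of the following turns: Inhba and Dll1, which hold 5 EpiLC-only interactions each, and Ffar2 and Fxyd5, which contact each other. The windows are those of RefSeq on GRCm38.p6, running from 250 bases before to 50 bases after a transcription start, 5′ to 3′ on the gene's strand, with each CpG, the dinucleotide that carries DNA methylation, in capitals. The window of Inhba lies at chr13:16011601-16011900 on the plus strand, that of Dll1 at chr17:15376883-15377182, that of Ffar2 at chr7:30823726-30824025 and that of Fxyd5 at chr7:31042282-31042581, the last 3 on the minus strand.
Inhba: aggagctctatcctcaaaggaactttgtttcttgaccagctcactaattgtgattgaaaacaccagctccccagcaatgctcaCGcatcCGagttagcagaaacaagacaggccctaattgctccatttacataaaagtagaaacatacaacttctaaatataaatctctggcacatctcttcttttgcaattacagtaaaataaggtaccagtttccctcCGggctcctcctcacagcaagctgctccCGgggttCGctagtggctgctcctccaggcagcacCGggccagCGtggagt
Dll1: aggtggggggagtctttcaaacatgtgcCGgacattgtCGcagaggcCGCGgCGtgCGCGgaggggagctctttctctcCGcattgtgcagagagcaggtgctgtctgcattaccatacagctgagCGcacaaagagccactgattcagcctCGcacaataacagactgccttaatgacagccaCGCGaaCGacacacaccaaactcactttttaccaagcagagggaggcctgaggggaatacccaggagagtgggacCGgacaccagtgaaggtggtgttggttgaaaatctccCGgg
Ffar2: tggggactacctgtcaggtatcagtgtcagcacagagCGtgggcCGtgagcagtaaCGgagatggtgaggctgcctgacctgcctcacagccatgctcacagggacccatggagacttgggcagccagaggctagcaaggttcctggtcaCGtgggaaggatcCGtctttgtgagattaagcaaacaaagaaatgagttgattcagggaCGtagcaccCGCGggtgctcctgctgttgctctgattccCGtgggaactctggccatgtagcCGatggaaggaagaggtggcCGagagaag
Fxyd5: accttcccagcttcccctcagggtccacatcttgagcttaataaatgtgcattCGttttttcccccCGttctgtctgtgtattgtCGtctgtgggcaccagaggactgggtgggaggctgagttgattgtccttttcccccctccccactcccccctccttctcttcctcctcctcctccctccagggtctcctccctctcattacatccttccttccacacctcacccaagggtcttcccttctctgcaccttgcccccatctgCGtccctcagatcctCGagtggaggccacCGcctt

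Dll1 had 15 CpGs in its 300 bases, Ffar2 11, Inhba 7 and Fxyd5 6. Over the 528 of 953 member baits with a matching RefSeq window inside the fragment, the median was 17 CpGs and an observed to expected CpG ratio of 0.673. Over the 10928 of 20017 baits with a window, the medians were 16 and 0.642, and over baits with an ESC-only interaction (5 or more in all ESC columns, under 5 in all EpiLC columns; 910, or 0.349% of those listed) 15 and 0.589. A ratio over 0.6, a common mark of CpG-rich promoters, was found in 58.5% of windows at baits with EpiLC-only interactions, in 53.8% of all and in 49.4% of those with ESC-only interactions. The median GC content was close in these sets (58.3%, 58.0% and 58.0%).

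Of 5 short motifs searched on both strands of these windows, the core of the motif of the insulator protein CTCF was present in 28 of 528 windows (5.30%) at baits with EpiLC-only interactions. It was present in 2.63% of all windows, in 2.98% at baits with ESC-only interactions and in 3.45% at baits with an interaction called in all 8 columns (17468 interactions, 6.7% of those listed). The octamer ATGCAAAT of POU factors was in 2.08% against 1.64% of all windows, the E-box CACGTG in 8.52% against 8.53%, the AP-1 motif TGACTCA in 3.79% against 4.48%, and TAATCC, bound by OTX factors, in 5.11% against 6.62%. No motif contains another, and the Ffar2 window printed above holds CACGTG. These are shares of letters in a window, with no test.

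Most EpiLC-only interactions were graded differences around the threshold, and few went from nothing to a strong contact. As ESC, DNMT_WT had a median score of 3.42, DNMT_KO of 3.08, TET_WT of 3.37 and TET_KO of 3.50; as EpiLC the same lines had 6.24, 6.66, 6.44 and 6.65. In 853 members (69.7%) at least 1 ESC column already scored 4 or more, while 72 (5.89%) stayed under 3 in all ESC columns and 3 scored 0 in each of them. In EpiLC, 990 members (80.9%) stayed under 10 in every line, 69 reached 7 in all lines, and 1 reached 10 in all lines, a contact of Hjurp described below. The gap between the lowest EpiLC and the highest ESC score had a median of 1.28, with quartiles of 0.738 and 1.97, and exceeded 3 in 86 members.

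**Figure D1:**
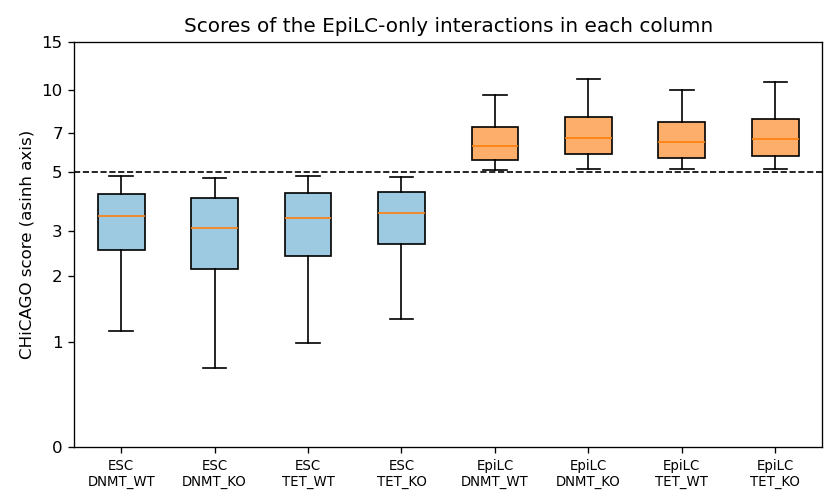
CHiCAGO scores (vertical axis, asinh scale) of the 1223 EpiLC-only interactions in each of the 8 columns of line and stage; boxes span the quartiles, the line in a box is the median, whiskers run from the 5th to the 95th percentile, and the dashed line is the threshold of 5 that chose the members. ESC medians lie between 3.08 and 3.50 and EpiLC medians between 6.24 and 6.66.

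The threshold separates rows with nearly equal scores. The lowest EpiLC score inside was 5.00008, in TET_WT, for a contact of Psmd13, a proteasome subunit, and the highest ESC score inside was 4.99912, in TET_WT, for Gif, now Cblif, which carries vitamin B12. Just outside lay a contact of Gm11706, whose DNMT_WT EpiLC score was 4.99951, and one of 1700093K21Rik, whose TET_WT ESC score was 5.00075. A further 3851 interactions missed the rule by a single EpiLC column and 2473 by a single ESC column. Rows with a missing score (15344, 5.88%) were left out of the rule; counting a missing ESC score as under 5 would add 33.

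The choice was repeated with each line left out in turn, so that the scores of that line could be read without having been used. Rows that were EpiLC-only in the other 3 lines were EpiLC-only in DNMT_KO in 1223 of 2544 cases (48.1%), against 18.8% of all 245516 interactions with scores in every column. The shares were 42.0% against 18.1% in TET_WT, 37.9% against 18.8% in TET_KO and 33.9% against 15.9% in DNMT_WT. The opposite pattern, ESC-only in the line left out, was seen in 6.76%, 7.91%, 6.92% and 12.3% of the chosen rows, against 16.7%, 15.4%, 16.0% and 17.5% of all interactions. The EpiLC score was above the ESC score in 79.5% of the chosen rows in DNMT_KO, 77.6% in TET_WT, 76.4% in TET_KO and 67.1% in DNMT_WT, against 49.4% to 53.9% of all interactions in the 4 lines. With 1 column per stage and line these shares have no test. In DNMT_WT, the line with the lowest share, the ESC column also had fewer called contacts of over 5 Mb on chromosome 4 (205) than the remaining DNMT columns (1755 to 2222), while the 4 TET columns had 8 to 19; 0 EpiLC-only interactions lie in that class.

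**Figure D2:**
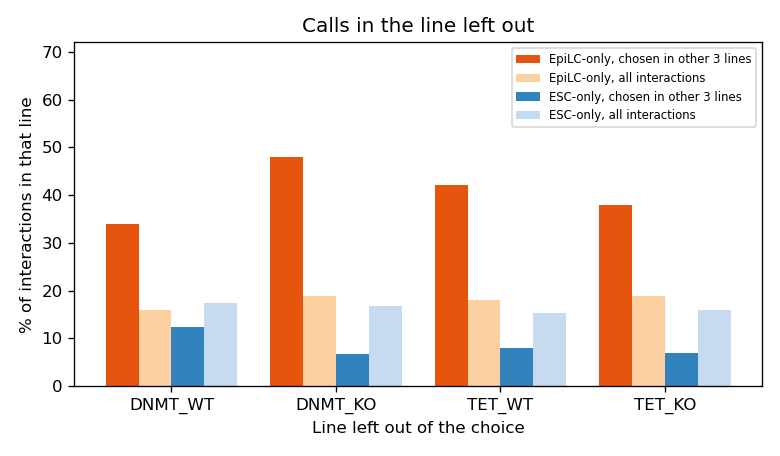
For each line left out of the choice (horizontal axis), the percentage of interactions that were EpiLC-only or ESC-only in that line, among rows that were EpiLC-only in the other 3 lines (dark bars) and among all interactions with scores in every column (light bars). The dark EpiLC-only bars stand at 33.9% to 48.1%, above the light ones at 15.9% to 18.8%, in each line.

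The knock-out lines were also set against contacts chosen in the wild types alone. Of 8343 interactions that were EpiLC-only in both wild-type lines, 54.3% reached 5 in DNMT_KO EpiLC and 52.9% in TET_KO EpiLC. Over all interactions with scores in every column, 34.4% and 40.0% did. In DNMT_KO 3224 (38.6%) were EpiLC-only and 15.6% were called at both stages. In TET_KO 2544 (30.5%) were EpiLC-only and 22.4% were called at both stages. Over all interactions, 18.8% were EpiLC-only in either knock-out, and 15.6% in DNMT_KO and 21.2% in TET_KO were called at both stages. The higher share called at both stages in TET_KO is thus also seen over all interactions.

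Among the members, the median difference of the EpiLC score between a knock-out and its wild type was small. The median difference of asinh scores (about the natural logarithm of the ratio for high scores) was 0.05 for DNMT_KO minus DNMT_WT, with quartiles of −0.11 and 0.22, and 0.03 for TET_KO minus TET_WT, with quartiles of −0.14 and 0.20. Over all interactions the medians were 0 and 0.01, with wider quartiles of −0.33 and 0.32 for DNMT and −0.34 and 0.37 for TET. A difference of over 0.693, which is a 2-fold ratio for high scores, was reached upwards by 21 members (1.72%) in each knock-out and downwards by 5 (0.409%) in DNMT_KO and 8 (0.654%) in TET_KO. Over all interactions 9.50% reached it upwards and 9.99% downwards in DNMT_KO, and 11.7% and 10.98% in TET_KO. Interactions called in all 8 columns also score 5 or more in EpiLC. Of these 0.807% reached it upwards and 0.819% downwards in DNMT_KO, and 1.75% and 1.51% in TET_KO. The DNMT_KO EpiLC score was above that of DNMT_WT in 58.5% of members, against 51.3% of interactions called in all 8 columns. For TET_KO and TET_WT these shares were 54.0% and 53.1%. The rule keeps only scores of 5 or more in EpiLC, which narrows these differences, and 1 column per group allows no test of a knock-out. The highest of the 4 EpiLC scores was that of DNMT_KO in 356 members (29.1%), of TET_KO in 339 (27.7%), of TET_WT in 282 (23.1%) and of DNMT_WT in 246 (20.1%). Among interactions called in all 8 columns these shares were 21.2%, 34.1%, 24.96% and 19.8%.

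Whether the EpiLC scores differ between the 2 parental families was tested on all interactions. The rule does not set the direction between families, but it keeps only EpiLC scores of 5 or more in these same 4 columns, which narrows the difference among members, so the members' counts are a description. limma compared the TET lines with the DNMT lines in EpiLC, a wild-type and a knock-out column standing as the 2 columns of each family. Over 245516 interactions 3 were higher (0.00122%) and 33 lower (0.0134%) in the TET lines at an adjusted p under 0.05 (16905, or 6.89%, with an unadjusted p under 0.05). With any column left out limma called 0, with 10905 to 19347 at an unadjusted p under 0.05. Of the 1223 EpiLC-only interactions 0 passed limma's threshold and 27 (2.21%) had an unadjusted p under 0.05, 20 of them lower and 7 higher in the TET lines. The difference over members ranged from −0.82 to 0.72 with a median of −0.06, and the median standard error was 0.21.

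Across all interactions the stage fit (limma, cell line as a block) called 338 higher in EpiLC (0.138%) and 165 lower (0.0672%). Among the members 111 were called higher and 0 lower; these calls use the contrast that chose the members and support nothing about them. They depend on every line: without DNMT_WT, DNMT_KO, TET_WT or TET_KO, 10, 0, 5 and 0 interactions were called in all by limma, with 37390, 29421, 30350 and 27717 at an unadjusted p under 0.05.

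The clearest member of up to 1 Mb was a contact of Ffar2, a receptor for short-chain fatty acids, on chromosome 7. Its promoter fragment (30822879 to 30824259, GRCm38) met a fragment 246 kb away that overlaps Fxyd3 and Lgi4 (31068246 to 31071039). The order of lines for all scores from here on is DNMT_WT, DNMT_KO, TET_WT, TET_KO. It scored 1.10, 0.286, 1.59 and 1.32 as ESC, and 8.09, 9.67, 8.27 and 10.8 as EpiLC. Fxyd5, which modulates the sodium pump (31038190 to 31043637), contacted the Ffar2 promoter itself over 217 kb, with 2.28, 0.714, 3.33 and 2.88 in ESC and 9.97, 8.88, 9.48 and 11.8 in EpiLC. By the rule the stages never overlap in a member, and here every EpiLC score lay above 8 and every ESC score below 3.34.

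Signalling genes of development were also among the 10 with the widest gap. Dll1, a ligand of Notch (chromosome 17, 15376851 to 15381166), contacted a fragment of 268 bases inside Ermard 292 kb away (15086738 to 15087005), scoring 2.61, 2.69, 4.58 and 4.47 as ESC and 9.53, 10.8, 13.5 and 15.9 as EpiLC. The TET lines scored higher than the DNMT lines at both stages in this contact, by 0.30 ± 0.17 (SE, 2 columns a family) on the asinh scale in EpiLC, which did not pass limma's test (adjusted p = 0.741). Shh, the hedgehog morphogen, contacted a 202-base fragment in Lmbr1, the gene that holds its limb enhancer. The fragment lies 804 kb away on chromosome 5 (29269034 to 29269235). Its place relative to the enhancer was not examined, so a contact with the enhancer is not shown. TET_KO stood apart among the EpiLC scores of this contact, at 17.1 against 7.06 to 7.85.

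Other contacts among the 10 with the widest gap involved less studied or non-coding baits. Gm15893 on chromosome 11 (88353291 to 88359626) reached a fragment 397 kb away with 1.72, 3.55, 1.61 and 2.06 in ESC and 9.99, 9.66, 11.5 and 9.18 in EpiLC. Ccdc158 (chromosome 5, 92672341 to 92676997) contacted a fragment inside Shroom3, a regulator of apical constriction in epithelia, with 2.3, 1.68, 4.03 and 4.29 against 9.16, 12.2, 12.8 and 9.26. SNORA42.12, a small nucleolar RNA copy (chromosome 9), contacted a fragment inside Pknox2, a homeobox gene, 241 kb away; TET_KO EpiLC scored 20.1 and the other lines 8.33 to 9.75. Gm9989 (891 kb), the odorant receptor Olfr1441 (298 kb) and Gm13055 (76.2 kb) had EpiLC scores of 6.87 to 9.25, 6.92 to 13.4 and 7.13 to 9.55, and ESC scores of at most 1.98, 2.15 and 2.45.

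**Figure D3:**
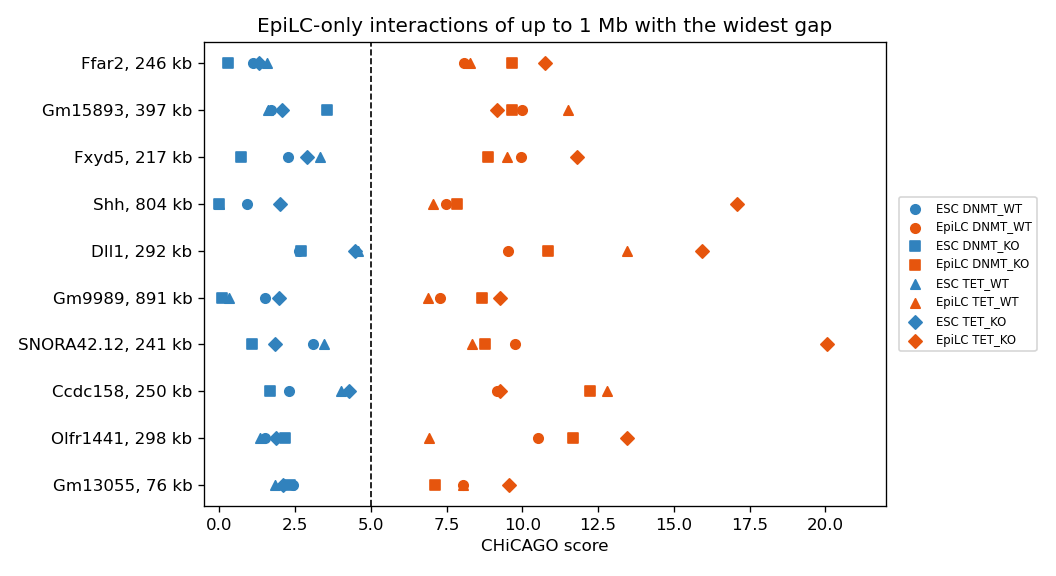
CHiCAGO score (horizontal axis) of the 10 EpiLC-only interactions of up to 1 Mb with the widest gap between the lowest EpiLC and the highest ESC score, each named by its bait and distance; blue marks are ESC, orange marks EpiLC, and the marker shape gives the line. ESC scores lie at 4.58 or below and EpiLC scores at 6.87 or above, and TET_KO EpiLC is at 15.9 or above at Shh, Dll1 and SNORA42.12.

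Several promoters had EpiLC-only interactions with several fragments of a stretch. Inhba, which encodes the subunit of activin A (chromosome 13, 16011411 to 16017560), had 5 EpiLC-only interactions at 814 to 1424 kb, and 4 of them ended inside Sugct, a mitochondrial enzyme of glutarate metabolism. The fragment at 17050104 to 17050765 scored 1.30, 0.805, 0.358 and 0.690 as ESC and 8.48, 7.54, 6.78 and 6.97 as EpiLC. At 17030119 to 17032717 the scores were 2.66, 2.11, 3.02 and 2.91 against 12.1, 8.09, 10.5 and 9.80. The 49 other listed fragments of Inhba with all scores, which are not members, had medians of 1.54 to 2.87 in ESC and 4.10 to 5.56 in EpiLC, so the bait as a whole scored higher in EpiLC in each line.

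Dll1 also had 5 EpiLC-only interactions: besides the one in Ermard, 4 lay at 132 to 150 kb, 3 of them on adjoining fragments between 15226779 and 15232106. The middle fragment of these (15230515 to 15230928) scored 0.567, 4.0, 0.759 and 1.06 in ESC and 5.14, 9.44, 6.64 and 5.18 in EpiLC. DNMT_KO was the highest line there at both stages. Dll1 had 19 further interactions called in all 8 columns and 0 that were ESC-only. The median of its 61 other fragments was 4.18 to 6.02 in ESC and 8.05 to 10.8 in EpiLC.

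The baits with most EpiLC-only interactions were Slc6a8 and Lrrc68, with 6 each. Slc6a8, the creatine transporter (X chromosome, 73669649 to 73676461), reached 4 fragments in Atp2b3, a calcium pump gene, 117 to 126 kb away; at 73546681 to 73547264 it scored 2.35, 2.60, 1.30 and 2.48 in ESC and 6.75, 8.17, 6.29 and 8.44 in EpiLC. Lrrc68, now Ppp1r37, an inhibitor of protein phosphatase 1 (chromosome 7, 19562313 to 19567403), had its 6 at 13.9 to 246 kb, among them fragments in Relb, Bcam and Cblc. Both baits as a whole scored higher in EpiLC in each line. The 53 other fragments of Slc6a8 with all scores had medians of 1.94 to 3.17 in ESC and 4.43 to 5.45 in EpiLC. For the 55 of Lrrc68 these were 2.88 to 4.86 and 7.28 to 8.45. Akt2, an insulin-signalling kinase, Ltbp4, a binding protein of latent TGF-beta, C330005M16Rik, now Acp7, and Asb4, an imprinted gene, had 5 each. At each of these baits too, the median of the other listed fragments was higher in EpiLC than in ESC in each line. The Asb4 contacts lay inside Ppp1r9a, a neighbour in the same imprinted cluster, and 3 of the 5 on adjoining fragments. Of the 953 baits 774 had a single EpiLC-only interaction, 120 had 2, 37 had 3, 14 had 4, 6 had 5 and 2 had 6.

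At Akt2 and Ltbp4 the contacts linked the same stretch of chromosome 7 from both sides. Akt2 (27590588 to 27594579) reached Sptbn4, a beta-spectrin, at 27408053 to 27409066 with 3.07, 1.33, 1.80 and 3.52 in ESC and 5.99, 10.5, 7.0 and 12.0 in EpiLC. Ltbp4 (27335534 to 27338488) reached Akt2 at 27595933 to 27598596 with 3.38, 0.694, 3.49 and 2.52 against 8.09, 9.18, 5.07 and 5.69. In both, DNMT_KO had the lowest ESC score, and the EpiLC order of the lines differed. Akt2, Ltbp4 and Spnb4 (now Sptbn4) also shared an end, the fragment at 27283956 to 27284912.

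Neighbouring members formed larger groups. Members whose both ends lay within 100 kb of those of another member were joined, which put 666 (54.5%) of them into 203 groups and left 557 alone. The 3 largest groups all lay on chromosome 7. The first held 25 interactions of 17 baits between 30217277 and 30765083, among them Etv2, a master factor of blood and endothelium, Kirrel2, Aplp1, Lin37, Nfkbid and Cox6b1; its median score was 3.23 to 3.66 in the ESC columns and 5.84 to 6.85 in the EpiLC columns. The next held 19 interactions of 12 baits from 30667147 to 31152823, with the free fatty acid receptors Ffar1, Ffar2 and Ffar3, the ion pump regulators Fxyd5, Fxyd7 and Fxyd3, and Mag and Lsr (1.84 to 3.34 against 6.58 to 7.83). The third, with 18 interactions of 7 baits from 27130249 to 27666148, was that of Akt2, Ltbp4, Numbl and Spnb4 (2.39 to 3.51 against 6.74 to 7.52). Fragments and baits are shared within a group, so its members are not separate observations.

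Chromosome 7 held 200 EpiLC-only interactions, 16.4% of them against 9.66% of all listed interactions, 5.38% of ESC-only ones and 12.6% of those called in all 8 columns. Per 100 listed interactions this was 0.794, followed by 0.700 on the X chromosome, 0.606 on chromosome 8 and 0.595 on chromosome 10; among the autosomes and X the lowest was 0.313 on chromosome 18, and the Y chromosome had 0 of 8 listed interactions. ESC-only interactions were ordered differently, with 0.618 on chromosome 15, 0.581 on chromosome 11 and 0.561 on chromosome 12, and 0.194 on chromosome 7. In each line the share of all called interactions that lay on chromosome 7 was also higher as EpiLC than as ESC: 11.6% against 9.63% for DNMT_WT, 11.1% against 9.54% for DNMT_KO, 10.9% against 9.65% for TET_WT and 10.9% against 9.78% for TET_KO. For chromosome 8 the shares in this order of lines were 6.38%, 6.24%, 7.15% and 4.94% as EpiLC. As ESC they were 5.04%, 6.60%, 6.53% and 4.60%. The share of chromosome 11 was lower as EpiLC in each line, at 8.74% to 9.58% against 9.73% to 10.4%. With a line left out of the rule, chromosome 7 held 13.8% to 16.3% of the EpiLC-only and 5.57% to 6.40% of the ESC-only interactions. These shares rest on interactions that share baits, and carry no test.

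**Figure D4:**
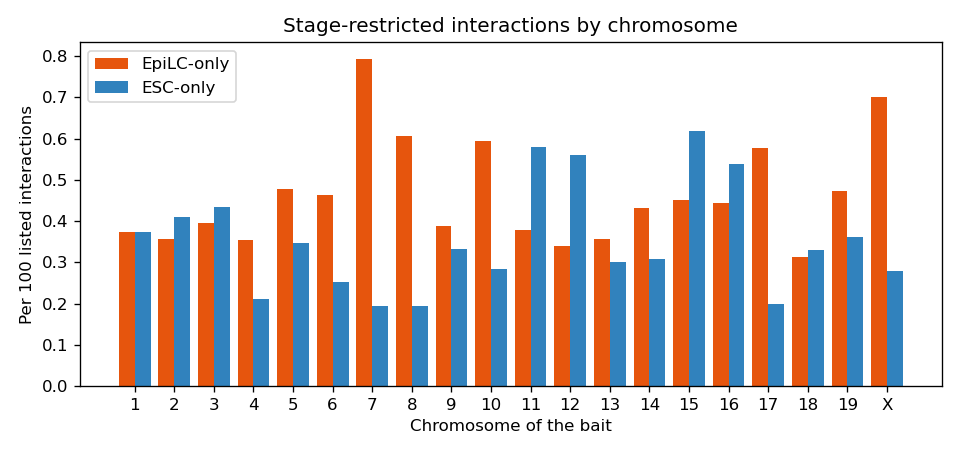
Number of EpiLC-only (orange) and ESC-only (blue) interactions per 100 listed interactions (vertical axis), by the chromosome of the bait (horizontal axis). Chromosome 7 is highest for EpiLC-only interactions at 0.794 and has 0.194 ESC-only interactions per 100, while chromosome 15 is highest for ESC-only interactions at 0.618.

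Within chromosome 7 the members were concentrated at 15 to 20 Mb and 25 to 35 Mb. The window from 30 to 35 Mb held 48 of them at 30 of its 73 baits, with 1 ESC-only interaction, and those from 15 to 20 and 25 to 30 Mb held 36 and 31, with 1 and 6. Interactions called in all 8 columns were also frequent there. In the same order they were 413 of 3168 listed, 392 of 3350 and 174 of 1792, against 17468 of 260860 over all. The next windows were 105 to 110 Mb of chromosome 8 (21), 35 to 40 Mb of chromosome 17 (20) and 75 to 80 Mb of chromosome 10 (17). These 6 of 527 windows of 5 Mb held 14.1% of the EpiLC-only and 4.97% of all listed interactions.

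The members lay in gene-dense DNA. The median number of protein-coding RefSeq genes within 500 kb of the bait was 24, against 18 over all listed interactions, 21 for those called in all 8 columns and 15 for ESC-only ones. Without chromosome 7 the medians were 20, 17, 19 and 15. By classes of gene number, EpiLC-only interactions made up 0.319% of listed interactions at 0 to 10 genes, 0.372% at 11 to 18, 0.489% at 19 to 31 and 0.723% at 32 to 74. ESC-only interactions made up 0.375%, 0.435%, 0.305% and 0.275% of the same classes, and interactions called in all 8 columns, whose share was also higher with more genes, 5.10%, 6.37%, 7.09% and 8.54%. The part of gene number in the share of chromosome 7 was not tested.

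EpiLC-only interactions reached farther than ESC-only ones at the long end, while their medians were close. The median distance was 204 kb, against 206 kb for ESC-only interactions, 188 kb for those called in all 8 columns and 275 kb for all listed ones. The 90th percentile was 590 kb against 447 kb in ESC-only interactions. Of the members, 286 spanned under 100 kb, 776 spanned 100 to 500 kb, 113 spanned 500 kb to 1 Mb, 41 spanned 1 to 10 Mb, 4 were longer and 3 joined different chromosomes. ESC-only interactions had 2 of 1 to 10 Mb; with a line left out of both rules, the counts in this class were 87 to 125 EpiLC-only and 3 to 16 ESC-only. Called interactions of 1 to 10 Mb as a whole numbered 1515 to 3288 in the ESC columns and 3572 to 4482 in the EpiLC columns, a difference of the whole series in which these members share.

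**Figure D5:**
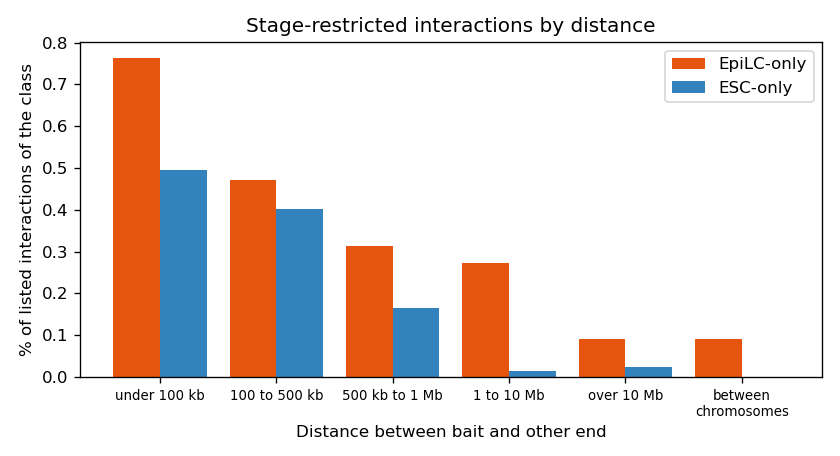
Percentage of the listed interactions of a distance class (horizontal axis) that were EpiLC-only (orange) or ESC-only (blue). The shares of EpiLC-only interactions fall from 0.762% under 100 kb to 0.273% at 1 to 10 Mb, and those of ESC-only interactions from 0.496% to 0.0133%.

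Among the members, the gap was wider in the longer distance classes. It is built from the scores that chose the members, so this is a description without a test or a background. The median gap between the stages was 1.06 under 100 kb, 1.28 at 100 to 500 kb, 1.44 at 500 kb to 1 Mb and 2.19 at 1 to 10 Mb, and all ESC scores were under 3 in 10 of the 41 members of 1 to 10 Mb. These 41 came from 31 baits on 14 chromosomes, 13 of them from chromosome 13, and 39 spanned under 2 Mb. Beside Inhba they included Cap1, an actin regulator (chromosome 4, 122878845 to 122886570), which contacted a fragment in the zinc-finger gene Rlf 1679 kb away with 0, 0.736, 0 and 0 in ESC and 9.17, 11.1, 6.44 and 6.98 in EpiLC. Zfp322a, a zinc-finger gene near histone clusters of chromosome 13, contacted fragments 1460 and 1352 kb away; the first scored 0.334, 1.29, 1.63 and 2.39 against 9.10, 6.62, 8.27 and 7.32.

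Over 10 Mb there were 4 members, 0.0914% of the 4377 listed interactions of that class. Between chromosomes there were 3, 0.0911% of 3293. Both shares lie below the 0.469% over all listed interactions. The 4 members over 10 Mb came from Hjurp and from U2.22, a copy of a small nuclear RNA. Hjurp, the chaperone of the centromeric histone (chromosome 1, 88276241 to 88278577), contacted 2 fragments near the start of the same chromosome, 84668 and 84266 kb away. The first, inside Xkr4 (3608890 to 3609307), scored 0 in all ESC columns and 19.9, 13.1, 14.1 and 19.6 as EpiLC. The second, at 4010690 to 4013130, had 0, 1.99, 0 and 1.32 against 7.09, 6.80, 6.53 and 19.6. Whether such far contacts are particular to the fragments named was not tested. U2.22 contacted 2 fragments in Tex14, a gene of germ-cell bridges, 14192 and 14209 kb away, with at most 0.163 in ESC and 7.53 to 42.7 in EpiLC. Of the 3 contacts between chromosomes, that of Gpr55 was with a fragment in Zfp617 on chromosome 8 (0, 0, 3.30 and 3.10 against 9.94, 18.1, 24.9 and 10.0). The kinase gene Sgk1 contacted the start of chromosome 13 (3343761 to 3345230), with 0 in ESC and 12.6, 6.35, 5.49 and 5.79 in EpiLC. For 4930444G20Rik the other end was at the start of chromosome 6 (3196882 to 3198142), with 0 in ESC and 5.23, 24.0, 5.17 and 5.39 in EpiLC.

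Most members had no adjoining fragment called in ESC. An adjoining fragment was listed for the same bait in 736 members (60.2%); it was called in at least 1 ESC column in 460 (37.6%) and in all 4 in 77 (6.30%). For ESC-only interactions, an adjoining fragment was called in at least 1 EpiLC column in 39.0% and in all 4 in 5.71%. By contrast, 45.4% of interactions called in all 8 columns had an adjoining fragment called in all ESC columns. An adjoining fragment was called in all EpiLC columns in 270 members (22.1%), and was itself EpiLC-only in 49.

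Of the baits with an EpiLC-only interaction, 603 (63.3%) also had an interaction called in all 8 columns, against 26.8% of all baits. These baits had a median of 27 listed interactions, against 8 over all baits, and a bait with more rows has more chances of either. Both EpiLC-only and ESC-only interactions were found at 28 baits, 2.94% of the former and 3.91% of the latter. Of all 20017 baits 3.58% had an ESC-only interaction and 953 had an EpiLC-only one. Baits with an ESC-only interaction had a median of 24 listed interactions. The shares over all baits are thus no background matched for listed interactions, and the overlap was not tested.

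The distant ends were mostly outside annotated promoters, as were those of all listed interactions. A bait was at the other end in 8.59% of members, against 9.12% of all listed interactions, 9.34% of ESC-only and 14.4% of those called in all 8 columns. Of the 1118 other ends that are not baits, 21 (1.88%) held a RefSeq start window, against 1.40% over all interactions, and 56.4% overlapped a protein-coding gene body, against 55.9%. Their median length was 1625 bases, against 1784 over all interactions and 1936 in ESC-only ones. All 72 members with ESC scores under 3 throughout had an other end that is not a bait.

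Named gene groups held few members each, and their shares below rest on small counts and carry no test. A promoter fragment had at least 1 EpiLC-only interaction in 1020 of 20230 cases (5.04%), counted as bait or as other end. Of 59 fragments of signalling ligands and their inhibitors 7 had (11.9%), with 17 interactions, or 1.39 per 100 listed against 0.469 over all, and 1 had an ESC-only interaction, that of Tgfb3. Besides Inhba, Dll1 and Shh these were Bmp8a with 3, Bmp2, the Notch ligand Dll4 and Wnt9b. Bmp2, a bone morphogenetic protein, contacted a fragment 536 kb away with 3.98, 4.39, 3.23 and 4.89 in ESC and 6.90, 7.21, 8.59 and 7.72 in EpiLC. Bmp8a, a relative of it needed for germ cells, contacted a fragment 347 kb away with 1.13, 1.60, 1.77 and 3.48 against 5.04, 10.1, 6.89 and 6.30. Of the 17 interactions, Inhba and Dll1 held 5 each. Dll4 and Wnt9b only just met the rule, with gaps of 0.334 and 0.358, below the median gap of all members. The gaps of Bmp2 (2.02) and Shh (5.06) lay above that median. Bmp8a had gaps on both sides of it (0.815, 1.45 and 1.56). So had Inhba, from 0.315 to 5.48, and Dll1, from 0.856 to 4.95.

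Of 27 fragments of formative and primed epiblast genes 4 had EpiLC-only interactions (14.8%, against 5.04% of all promoter fragments), 6 in all. Sox3, a SoxB1 factor of epiblast and neural cells, contacted fragments 115 and 260 kb away, the first with 2.31, 2.43, 3.31 and 1.85 in ESC and 5.73, 7.31, 5.15 and 5.76 in EpiLC. Tcf7l1, a repressor of naive genes, contacted a fragment 341 kb away with 4.34, 3.57, 3.90 and 2.63 against 5.95, 7.34, 7.01 and 7.65. Sall2, a zinc-finger factor, had 2, and Etv4, an Fgf-responsive factor, had 1 (3.21, 4.34, 4.29 and 2.65 against 5.31, 10.7, 7.65 and 5.05). The gaps of Sall2 (1.25 and 1.11) and Etv4 (0.711) lay below the median of 1.28 over all members. Those of Sox3 (1.84 and 1.83) and Tcf7l1 (1.61) lay above it. Fgf15 had an ESC-only interaction.

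Of 23 fragments of naive pluripotency genes 2 (8.70%) had an EpiLC-only interaction, Tbx3 and Dppa5a, against 5.04% of all promoter fragments. An ESC-only one was found at 2, Tbx3 again and Esrrb. Tbx3, a T-box factor of naive cells and of limb and heart, contacted a fragment 863 kb away with 2.60, 0.674, 1.23 and 3.30 in ESC and 5.77, 9.63, 6.69 and 9.75 in EpiLC. Dppa5a, an RNA-binding protein of pluripotent cells, scored 2.83, 1.45, 3.43 and 4.35 against 6.0, 7.18, 10.1 and 6.71. The knock-outs scored higher than their wild types in EpiLC at Tbx3, and not in both families at Dppa5a.

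Of 27 hematopoietic and endothelial fragments 3 (11.1%) had an EpiLC-only interaction, against 5.04% of all promoter fragments. Each of the 3 had a gap below the median of all members. Myb, a factor of blood progenitors, contacted a fragment in Ahi1 103 kb away with 3.68, 4.45, 2.49 and 4.47 in ESC and 5.99, 7.77, 5.60 and 6.40 in EpiLC. Lyl1, a factor of blood stem cells, scored 2.93, 4.42, 3.44 and 4.16 against 7.97, 6.02, 7.52 and 5.44, and Etv2 2.79, 2.99, 4.55 and 3.95 against 6.71, 6.48, 6.30 and 5.10. In Lyl1 and Etv2 the knock-outs lay below their wild types in EpiLC, while in Myb they lay above them. Hhex had an ESC-only interaction.

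Among other lists, 1 of 18 neuroectoderm fragments had an EpiLC-only interaction, Nkx6-1, a factor of the ventral neural tube (0.861, 4.81, 3.82 and 4.74 against 8.04, 6.65, 13.5 and 11.7). Of 89 fragments of other developmental regulators 3 had: Osr2, a zinc-finger factor of limb and palate, whose promoter and that of Rgs22 contacted each other over 845 kb and were listed from both ends, the LIM homeobox gene Lhx9, and Tlx2. Of 31 Hox fragments Hoxc12 alone had any, 3 of them, the widest with 2.02, 2.79, 1.86 and 3.26 against 5.08, 6.73, 7.12 and 9.61. Of 64 adhesion and synaptic fragments Cadm3 and Nlgn3 had; Cadm3, a cell adhesion molecule, contacted the promoter of Ccdc19 847 kb away with 1.92, 1.13, 3.49 and 3.77 against 7.32, 10.8, 7.96 and 13.6. Zbtb4, a reader of methylated DNA, had 2 and was 1 of 16 DNA methylation genes with any. Smc1b, a meiotic cohesin, was 1 of 24 germline genes. In the lists of this paragraph named so far, 3.13% to 6.25% of the fragments had an EpiLC-only interaction, against 5.04% of all promoter fragments. Of 22 mesoderm and primitive streak fragments and 12 endoderm fragments 0 had one, with 369 and 166 listed interactions. With 5.04% of fragments and 0.469 per 100 listed over all, lists of this size are too small to read anything from 0. ESC-only interactions were found in these lists too: 4 fragments of other developmental regulators had any (Barhl1, Bhlhe22, Lhx3 and Nkx2-1), 3 Hox fragments (Hoxb13, Hoxb3 and Hoxc10), and 1 each of the endoderm (Hhex), adhesion (Cdh13), DNA methylation (Tet3) and germline lists (Dazl, with 2 interactions). The neuroectoderm and mesoderm lists had 0.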

How the data were processed

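The submitters' processing notes name Trim Galore 0.6.5, cutadapt 2.3 and the build GRCm38; for the aligner and CHiCAGO, versions were not given in the sources used. The authors deposited a CHiCAGO score for each bait and other end in each of 8 columns, 1 per group, and how the replicates of a group were combined is not stated. Depth per sample is unknown, no scaling between columns is stated, and each row reaches 5 in at least 1 column. Members were taken from the deposited scores as they stand. The limma 3.58.1 fits (R 4.3.3; eBayes with a mean trend, Benjamini-Hochberg at 0.05) used asinh scores, quantile-normalised, over the 245516 rows with scores in all columns, and were tested on simulated data. Other steps used Python 3.11.15.

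Named interactions are the 10, 5, 5 and up to 5 with the widest gap of up to 1 Mb, 1 to 10 Mb, over 10 Mb and between chromosomes, the baits with most members, the 3 largest groups, and up to 4 per list of 12 gene lists. Members singled out beyond these, such as Etv4, Bmp2 and Bmp8a, were named after their values were seen. The members, lists and rules were chosen with earlier results of these data known. Bait names were matched to RefSeq symbols (GRCm38.p6) at the same place for 809 of 953 member baits. Fragment sequences were not used here. p-values rest on the spread between lines, and a knock-out and its own wild type share their origin.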

Additional observations from a re-analysis of the deposited data

How the results depend on the processing

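The number of EpiLC-only interactions depends on the thresholds: it was 72 with ESC scores under 3 and 69 with EpiLC scores of 7 or more, and 2549 to 3615 with a line left out, where fewer columns have to pass. The share with a bait at the other end was 10.99% with missing scores counted as under 5, 0% with ESC scores under 3 and 11.6% with EpiLC scores of 7 or more; the cause was not tested. After quantile normalisation 1112 interactions passed, 994 of them members, and without chromosome 7, an alternative chosen after seeing the data, 1023. The share of EpiLC-only interactions with a chromosome 7 bait lay between 13.8% and 23.2% over the alternatives that keep chromosome 7. The median distance was 204 to 299 kb. The family comparison in EpiLC called 36 interactions, 0 without a mean trend (17379 at an unadjusted p under 0.05 in limma) and 0 with any column left out (10905 to 19347 at an unadjusted p under 0.05); it called 0 members in each case. The stage fit called 503 interactions (67.2% of them higher in EpiLC), 801 on the log2 scale, 324 without normalisation (74.7% higher) and 0 to 10 with a line left out. No paired analysis was possible because the deposited columns carry no replicate number; the stage fit is blocked by cell line, which is not a replicate. Without counts, the depth behind a score is unknown, and a contact under 5 is not shown to be absent.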
